A study of Mus musculus with 4 samples.

Results

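Amino acid and neurotransmitter transporters were followed across 4 RNA-seq libraries of cultured mouse mammary tumour cells. The members were all genes of solute carrier families 1, 3, 6, 7, 36, 38 and 43 whose symbol is the family name followed by a number alone. This rule uses names only and found 59 genes among the 23361 in the deposited table. The cells derive from a mammary tumour of the Chaos3 mouse, a model with a mutant Mcm4 helicase subunit, on the C3HeB/FeJ strain. The Low group holds 2 libraries of the 23116 MT tumour line, labelled low in Arid1a. The High group consists of 2 clones, AB-C1 and AB-C2, with a single library apiece, transduced with a lentiviral vector to over-express Arid1a, a subunit of the SWI/SNF chromatin remodelling complex. All cells therefore share the Chaos3 tumour origin, and no vector is named for the Low libraries. Each High library is 1 clone, so clonal differences and the effect of the vector cannot be told apart. The labels do not say that the Low duplicates came from separate cultures, so the tests measure only the spread between these libraries, which may be technical.

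These carriers move amino acids and related small molecules across membranes. Family 1 transports glutamate, aspartate and small neutral amino acids with sodium. Family 6 couples sodium and chloride to the uptake of amino acids, of neurotransmitters such as GABA, glycine and serotonin, and of the osmolytes betaine and taurine. Many family 7 proteins are light chains that reach the cell surface only when bound to a family 3 heavy chain, while others carry arginine and lysine on their own. Family 36 is driven by protons, often in lysosomes, family 38 takes up glutamine and other neutral amino acids with sodium, and family 43 holds sodium-independent carriers. Dividing tumour cells depend on several of these for glutamine, leucine, cystine and arginine.

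Facts of the libraries that bear on every value are as follows. Fragments numbered 13889856 and 28110812 (Low 1 and 2) and 16523077 and 24307249 (High 1 and 2). Levels of a gene between libraries are given in CPM, in which fragments are divided by the library total and edgeR's TMM factor, and levels between genes in FPKM, which is per length. Arid1a itself, which checks the labels only if the vector transcript was counted as the mouse gene, read 82.2 and 94.2 CPM in Low against 49.8 and 58.3 CPM in High (edgeR adjusted p = 0.165). It was thus not higher under the High label, and directions below refer to the libraries as labelled. All 8 epithelial markers (among them Epcam, Cdh1, Krt8 and Krt14) were detected, with sums of 1609 and 1082 FPKM (Low) and 1290 and 3092 FPKM (High). Of these, 7 had a log2 fold change above 0, edgeR called 0 and DESeq2 called 3 higher. With edgeR 4 had an unadjusted p under 0.05, against 18.1% of all tested genes. Of 8 fibroblast markers, 7 were detected and Lum was at 0. Their summed level was 1113 to 1202 FPKM in the Low libraries against 320 and 40.1 FPKM in High libraries 1 and 2. With edgeR, Fap was the 1 fibroblast marker called (lower, adjusted p = 0.00738), where 1.33% of all genes were called lower. Of the 7 tested, 3 had an unadjusted p under 0.05 with edgeR, against 18.1% of all genes. DESeq2 called 1 fibroblast marker higher and 2 lower (4.7% and 4.04% of all genes), and limma-voom 0 higher and 2 lower (0.932% and 1.54%). The list did not move as 1, with 5 of 7 tested below 0. Col1a1 was 58.6-fold lower (edgeR adjusted p = 0.0717) and Col3a1 22.3-fold lower (0.413). Dcn went from 4.19 and 5.45 CPM to 195 and 19.6 CPM, and Pdgfra had a log2 fold change of 0.56, neither passing with edgeR. Endothelial markers summed to at most 0.226 FPKM and leukocyte markers to at most 1.65 FPKM in any library. Among 6 neuronal and glial markers the summed level was 2.95 to 2.99 FPKM (Low) and 7.51 to 12.3 FPKM (High), most of it Mbp (called higher, adjusted p = 0.0312), while the neuronal Snap25, Syt1 and Rbfox3 were at or near 0. The part of the epithelial, fibroblast or glial markers in the results below was not tested.

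Of the 59 transporter genes, 35 passed edgeR's filter on low counts and were tested. The other 24 comprised 13 at 0 fragments in every library and 11 with 1 to 26 over all libraries. A count of 0 allows up to 0.11 to 0.22 CPM per library (3 fragments, counting error only). Those at 0 included Slc6a11, Slc6a5 and Slc6a18, the light chains Slc7a9, Slc7a10, Slc7a12, Slc7a13 and Slc7a15, the proton-coupled Slc36a2 and Slc36a3, and Slc38a5 and Slc38a11. Among the 11, the heavy chain Slc3a1, the dopamine carrier Slc6a3, Slc6a19, Slc38a3 and Slc38a8 had at most 4 fragments in any library. Slc6a13, a carrier of GABA and taurine, had 2 fragments in High library 2 and 0 elsewhere. Of the 59 genes, 21 reached 1 FPKM in every library and 8 reached 10 FPKM.

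Per length, the taurine transporter Slc6a6 led in all 4 libraries, at 125 and 134 FPKM (Low) and 164 and 89.2 FPKM (High). It alone held 16 to 23.9% of the members' summed FPKM. By the mean over the 4 libraries, next came Slc38a2, which takes up glutamine and alanine, at 105 and 118 FPKM (Low) and 82.6 and 63.2 FPKM (High). In High library 2 it was below Slc3a2, Slc7a5 and Slc38a10. The heavy chain Slc3a2 stood at 79.2, 69.6, 74.3 and 77.5 FPKM (Low 1 and 2, High 1 and 2), and its leucine-carrying light chain Slc7a5 at 60.3, 46.1, 46.8 and 72.8 FPKM. Slc3a2 was above Slc7a5 within every library, although the ranges of these genes over the libraries overlap. The ranges of neighbours higher in the order, Slc6a6 with Slc38a2 and Slc38a2 with Slc3a2, overlap as well. Slc38a10 followed at 34.6 to 64.7 FPKM, then the creatine transporter Slc6a8 at 34 to 51.9 FPKM and the light chain Slc7a6 at 24.7 to 43.9 FPKM. These last 3 overlap in their ranges and are not ordered. Slc38a10 and Slc6a8 also overlap with Slc7a5. In High library 1 they were above it, at 57.1 and 51.9 against 46.8 FPKM. The 5 most abundant members held 62.5 to 69.5% of the summed level in each library. The sum over all members was 601 and 595 FPKM (Low) and 689 and 558 FPKM (High), so the Low values lie between the High values.

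**Figure D1:**
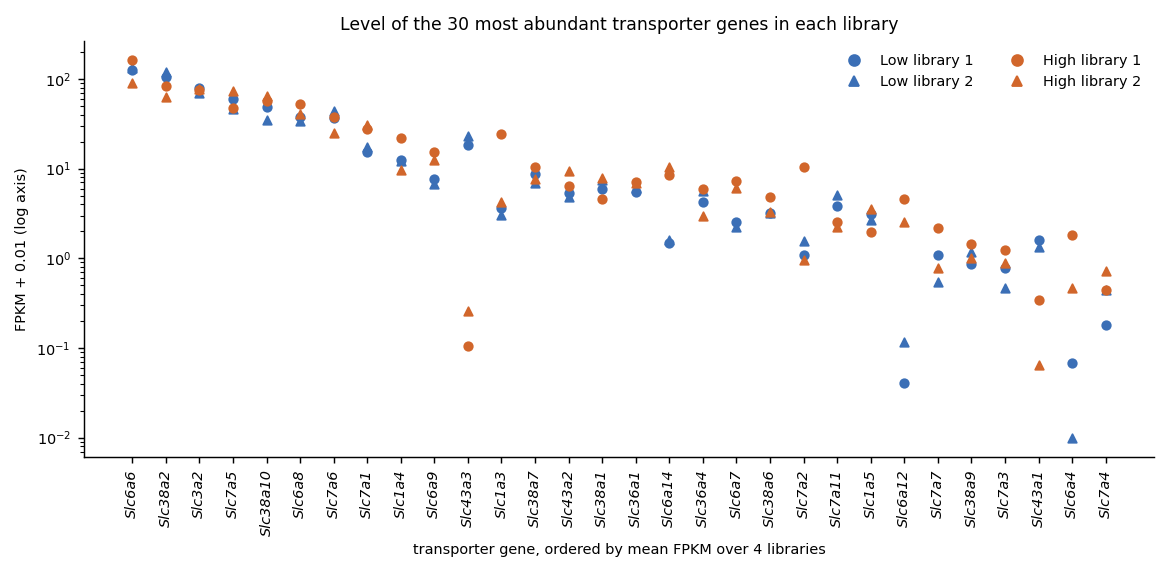
FPKM (plus 0.01, log axis) of the 30 transporter genes with the highest mean, each point 1 library, blue for Low and orange for High, circles for library 1 and triangles for library 2. Most genes of high level have all 4 points together, while Slc43a3 falls to 0.096 and 0.251 FPKM in the High libraries and Slc6a12 stands at 0.0309 and 0.108 FPKM in the Low libraries.

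In the comparison of High with Low, 2 members rose and 2 fell at an adjusted p under 0.05, and 31 did not pass (edgeR, Benjamini-Hochberg over all 12987 tested genes). The betaine carrier Slc6a12 and the broad neutral and cationic amino acid carrier Slc6a14 rose. The family 43 member Slc43a3, known as a carrier of purine nucleobases, and the sodium-coupled amino acid carrier Slc38a4 fell. Over all genes, 2.47% were called (1.14% higher, 1.33% lower), and the 4 members make 11.4% of the 35. That share is above the background but rests on 4 genes, and the difference was not tested. Slc6a12 entered the test only through the High libraries, and Slc38a4 and Slc43a3 only through the Low libraries, so that their difference is tied to their passing the filter. Slc6a14 passed the filter in both groups. In a bulk sample, fewer cells with a transcript and less of it per cell cannot be told apart. Without Low library 1 or without Low library 2 edgeR called 0 of the 35 members (8 and 7 at an unadjusted p under 0.05) and 0 genes in all. Without High library 1 it called 6 members higher and 5 lower (9.04% and 8.1% of all genes), and without High library 2 it called 10 higher and 3 lower (10.5% and 8.29%).

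Slc6a12 (ENSMUSG00000030109.15, plus strand of chromosome 6, 121343076 to 121365775, mm10) had 1 and 7 fragments in Low against 187 and 147 in High, or 0.0735 and 0.256 against 10.9 and 5.98 CPM. Both High libraries lie above both Low libraries. The difference was 44.9-fold (log2 5.49 ± 0.75 SE, adjusted p = 0.0136). Without Low library 1 the log2 fold change was 5.01 and without Low library 2 it was 6.72, with adjusted p of 0.503 and 0.496. The adjacent GABA and taurine carrier Slc6a13, whose end lies 5.3 kb away, had 0, 0, 0 and 2 fragments. The neighbour was therefore not measurable where Slc6a12 was.

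Slc6a14 (ENSMUSG00000031089.7, plus strand of chromosome X, 21714896 to 21742355, mm10) read 4.85 and 5.16 CPM in Low and 27.6 and 34.1 CPM in High. An annotated gene of the same strand, Gm25553, overlaps it. The pairs do not overlap, and the fold change was 6.15 (log2 2.62 ± 0.31 SE, adjusted p = 0.00862). Without Low library 1 or 2 the log2 fold change was 2.58 or 2.67, with adjusted p of 0.422 and 0.496.

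Slc43a3 (ENSMUSG00000027074.14, plus strand of chromosome 2, 84936579 to 84958509, mm10) had 602 and 1503 fragments in Low but 4 and 15 in High, or 44.2 and 55 against 0.234 and 0.611 CPM. Both High libraries lie far below both Low libraries. It was 111-fold lower (log2 -6.79 ± 0.47 SE, adjusted p = 0.0021). Among the members it had the smallest adjusted p. Its values with a Low library left out were -6.96 and -6.65, with adjusted p of 0.334 and 0.358.

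Slc38a4 (ENSMUSG00000022464.14, minus strand of chromosome 15, 96994820 to 97055956, mm10), a carrier known mainly from liver and placenta, had 32 and 58 fragments in Low and 0 in either High library. At 2.35 and 2.12 CPM in Low, it was at least 31.1-fold lower in High (floor of 3 fragments over the group, adjusted p = 0.0333). On log2(FPKM + 1) with limma its call was lost (adjusted p = 0.095), as it was without Low library 1 (0.594) or 2 (0.661).

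**Figure D2:**
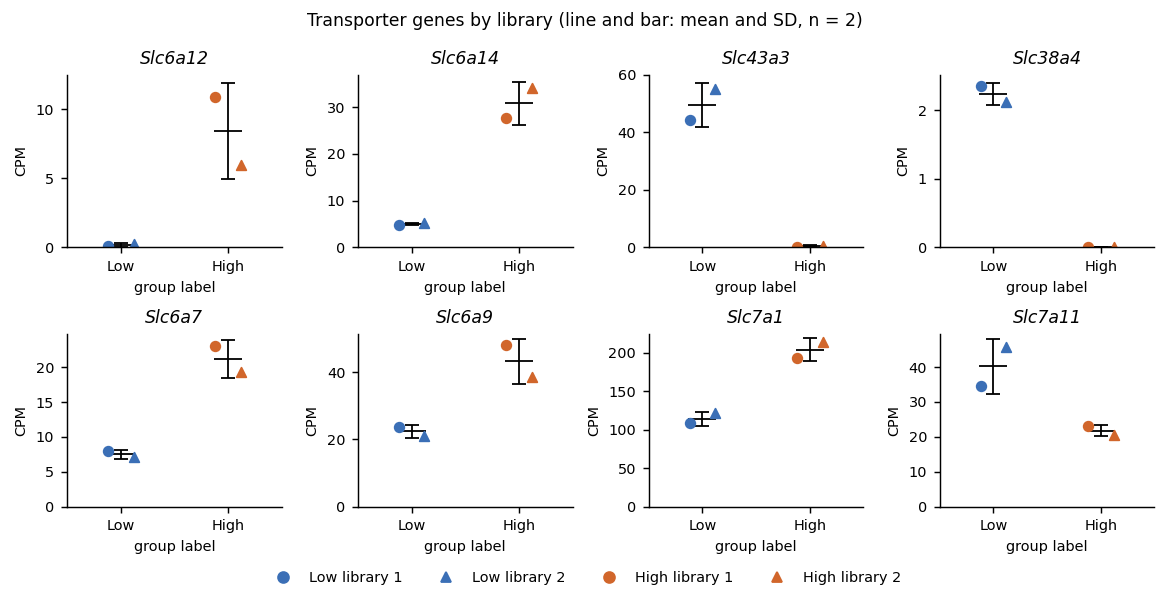
CPM by library for 8 transporter genes, with the mean and SD of each group (n = 2), points coloured by group and shaped by library number. The 4 upper panels show the called genes, such as Slc43a3 at 44.2 and 55 CPM in Low against 0.234 and 0.611 CPM in High. The 4 lower ones show selected genes that did not pass and whose groups do not overlap either. Groups do not overlap in 51% of all tested genes.

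The promoters of Slc6a12, Slc38a4 and Slc7a11 are shown because letters matching a published regulatory element can be read in them. Slc7a11 was not among the called members (edgeR adjusted p = 0.148). Cells in hypertonic medium induce betaine and taurine uptake through NFAT5, which binds the tonicity-responsive enhancer. Cells short of amino acids induce transporters through ATF4, which binds the amino acid response element, searched here as TGATGNAA. Both were searched on both strands in the 250 bases before each RefSeq start (GRCm38.p6, the mm10 assembly), where 41 of the 59 members have 1 or more windows. Each match to the enhancer also holds its core TGGAAA. The tonicity-responsive enhancer was found in 4.31% of all 32851 windows, its core in 18.6% and the amino acid response element in 3.45%. Capitals mark the matches, the enhancer in Slc6a12 and Slc38a4 and the amino acid response element in Slc7a11.
Slc6a12, chr6:121342324-121342573, plus strand: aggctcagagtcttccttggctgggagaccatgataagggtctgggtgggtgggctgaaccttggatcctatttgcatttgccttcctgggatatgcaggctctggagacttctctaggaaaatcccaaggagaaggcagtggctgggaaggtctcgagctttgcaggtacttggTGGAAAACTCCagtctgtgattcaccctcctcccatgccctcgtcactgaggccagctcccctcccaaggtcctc
Slc38a4, chr15:97055957-97056206, minus strand: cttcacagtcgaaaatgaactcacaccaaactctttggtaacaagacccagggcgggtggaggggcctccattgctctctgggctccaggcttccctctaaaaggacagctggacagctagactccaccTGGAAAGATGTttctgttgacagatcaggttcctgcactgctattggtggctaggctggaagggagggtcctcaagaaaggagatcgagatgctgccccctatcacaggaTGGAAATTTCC
Slc7a11, chr3:50443614-50443863, minus strand: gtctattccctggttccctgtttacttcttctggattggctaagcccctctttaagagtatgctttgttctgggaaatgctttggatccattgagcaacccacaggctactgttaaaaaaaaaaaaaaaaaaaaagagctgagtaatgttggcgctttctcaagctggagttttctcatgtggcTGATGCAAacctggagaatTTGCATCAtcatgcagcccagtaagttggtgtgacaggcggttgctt
The Slc6a12 window is the most upstream of its 5, and the other 4 hold no match to either element. Its match begins 75 bases before the start. In Slc38a4 the most upstream of 3 windows has 2 matches, 121 and 11 bases before the start. Slc7a11 carries 2 copies of the amino acid response element, 66 and 47 bases before the start and on opposite strands. The window of Slc6a14 has no match to either, and Slc43a3 has no window. Of the 62 member windows, 6 (9.68%) in 6 genes hold the tonicity-responsive enhancer, namely Slc6a12, Slc6a13, Slc6a17, Slc36a3, Slc38a4 and Slc38a6, and 3 (4.84%) hold the amino acid response element, in Slc7a11 and Slc7a7. Genes with the enhancer stood higher (Slc6a12), lower (Slc38a4) and at 0 (Slc36a3) in the High libraries. A match describes the letters only.

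Among the glutamate and aspartate carriers 0 of 2 tested members passed edgeR's test (0 at an unadjusted p under 0.05), and DESeq2 called Slc1a3. Over all genes DESeq2 called 8.75% (4.7% higher, 4.04% lower) and limma-voom 2.47% (0.932% higher, 1.54% lower). Slc1a3, the glial-type glutamate carrier, was at 14.8 and 12.3 CPM (Low) and 98.3 and 17.1 CPM (High). Both High libraries are above Low, but High library 2 only just. This gave a log2 fold change of 2.09 ± 0.95 (SE, adjusted p = 0.378), which was 0.34 without High library 1. Slc1a2, a related carrier, was low at 0.588, 0.146, 2.45 and 0.366 CPM. Of the other glutamate carriers, Slc1a6 had 25 fragments in High library 1 and 1 in High library 2, Slc1a1 had 5 and 1, and neither had any in Low. Slc1a7 had at most 2 in a library.

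Neither of the small neutral amino acid exchangers passed. Slc1a4, which exchanges alanine, serine and cysteine, was at 47.1 and 45.9 CPM (Low) and 82.9 and 36.6 CPM (High), with a log2 fold change of 0.36 ± 0.39 (SE, adjusted p = 0.679). The glutamine exchanger Slc1a5 was at 7.93 and 6.8 CPM (Low) and 5.08 and 9.04 CPM (High), with a log2 fold change of -0.06 ± 0.44 (SE, adjusted p = 0.964). In both genes the Low values lie between the High values.

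No heavy or light chain of the heteromeric carriers passed. Slc3a2 was at 190 and 167 CPM in Low and 181 and 187 CPM in High, a log2 fold change of 0.04 ± 0.21 (SE, adjusted p = 0.940). Slc7a5, at 201 and 154 against 157 and 244 CPM, gave 0.18 ± 0.28 (adjusted p = 0.790). The groups overlap in both genes. The cystine and glutamate exchanger Slc7a11, whose promoter is printed above, was at 34.6 and 45.8 CPM in Low and 23 and 20.6 CPM in High. Both High values are lower. The log2 fold change of -0.89 ± 0.27 (SE) missed the threshold (adjusted p = 0.148). It was -0.97 without High library 1 and -0.81 without High library 2. The light chain Slc7a6, a carrier of neutral and cationic amino acids, was at 131, 156, 136 and 88.1 CPM and its groups overlap. Its relative Slc7a7 was at 1.02 to 4.21 CPM, also with overlap, and Slc7a8 had at most 2 fragments in a library. Summed over all light chains, the level per length was 1.2 to 1.37 times that of Slc3a2 in every library.

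The tested cationic amino acid carriers and relatives each had a log2 fold change above 0. Of 5 tested, 0 were called by edgeR, 1 by DESeq2 and 0 by limma-voom. With edgeR 1 had an unadjusted p under 0.05, against 18.1% of all genes. Slc7a1, the main carrier of arginine and lysine in most cells, was at 108 and 121 CPM (Low) and 193 and 214 CPM (High), 1.78-fold higher without passing (adjusted p = 0.101). Its groups do not overlap. Slc7a2, an inducible arginine carrier, was at 8.23, 11.6, 79.3 and 7.16 CPM, so High library 1 alone stands out. Its log2 fold change was 2.12 ± 1.29 (SE, adjusted p = 0.496), and -0.48 without High library 1. Slc7a3, Slc7a4 and Slc7a14 were at 0.402 to 2.69 CPM in every library and did not pass.

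In family 6, 6 members other than the called pair had a log2 fold change above 0 without passing, of which Slc6a17 turned when Low library 2 or High library 1 was left out. The proline carrier Slc6a7 was at 8.01 and 7.1 CPM (Low) and 23.1 and 19.3 CPM (High), a 2.81-fold difference with adjusted p = 0.0599. Glycine carrier Slc6a9 was at 23.7 and 21 against 48 and 38.5 CPM (1.93-fold, adjusted p = 0.116), and its gene overlaps B4galt2 and Ccdc24 on the opposite strand, so that reads may be shared if strand was not used. Both genes have High libraries above Low libraries. The serotonin carrier Slc6a4 had 2 and 0 fragments in Low and 81 and 29 in High. The ratio was 54 (95% interval 14.6 to 452, counting error only), and Slc6a4 missed the threshold (adjusted p = 0.0982). It passed the low-count filter only through the High libraries, so being tested and being higher are tied for Slc6a4. The summed neuronal and glial markers were higher in High as well, almost wholly through Mbp, while Snap25, Syt1 and Rbfox3 were each at most 0.115 FPKM. The branched-chain and proline carrier Slc6a15 was at 0.661 and 0.622 against 3.62 and 0.814 CPM, and its relative Slc6a17 at 0.329 to 1.99 CPM with overlapping groups. The noradrenaline carrier Slc6a2 had 1 and 0 fragments in Low and 23 and 0 in High, all but 1 of them in High library 1. The creatine carrier Slc6a8 stood at 143 and 129 CPM in Low and 198 and 154 CPM in High, a log2 fold change of 0.37 ± 0.23 (adjusted p = 0.452). Taurine carrier Slc6a6 gave -0.02 ± 0.31 (adjusted p = 0.981), with its Low values between its High values.

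Beside the called Slc38a4 and Slc43a3, members of families 36, 38 and 43 did not pass. Lysosomal Slc36a1 was at 27.9 and 31.2 CPM (Low) and 36 and 35.1 CPM (High), with a log2 fold change of 0.27 ± 0.24 (adjusted p = 0.613). Slc38a2, on chromosome 15 next to Slc38a1 and Slc38a4, was at 468 and 525 CPM in Low and 371 and 284 CPM in High. The High values are both lower, at a log2 fold change of -0.60 ± 0.24 (SE, adjusted p = 0.245). Slc38a1, between 32.4 and 56.8 CPM in all libraries, gave -0.09 ± 0.32 (adjusted p = 0.920). Slc38a6, Slc38a7 and Slc38a9 lay between 7.57 and 32.6 CPM in all libraries, and Slc36a4 between 5.13 and 10.4 CPM. Slc38a10 was at 210 and 151 CPM in Low and 250 and 283 CPM in High, without passing (adjusted p = 0.284). The leucine carrier Slc43a1 was at 3.75 and 3 CPM in Low and 0.759 and 0.122 CPM in High, 7.84-fold lower without passing (adjusted p = 0.151). Slc43a2, the other leucine carrier of the family, was at 36.7 and 32.3 against 43.3 and 63.1 CPM and did not pass either (adjusted p = 0.279).

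**Figure D3:**
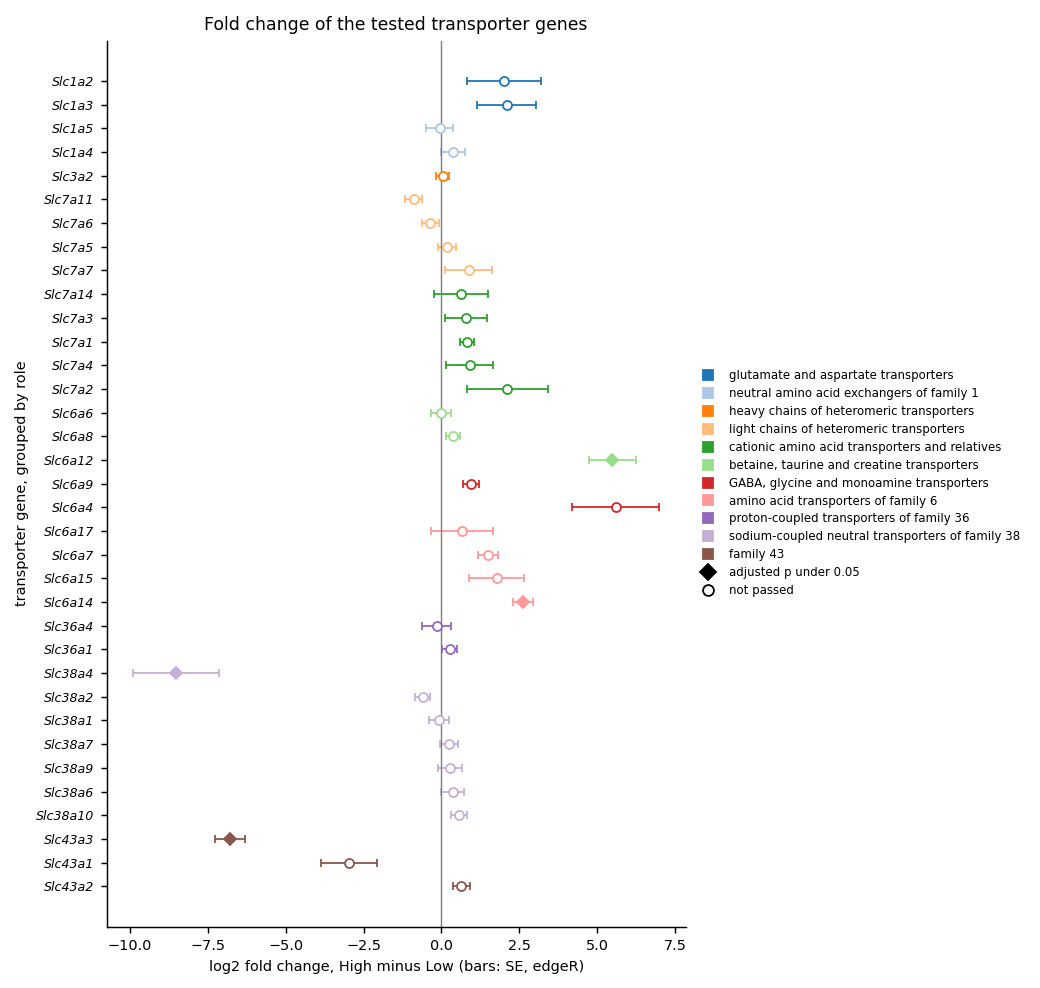
Log2 fold change, High minus Low, of the 35 tested transporter genes with SE bars from edgeR, coloured by role, filled diamonds for an adjusted p under 0.05. The 4 filled points are Slc6a12 (5.49), Slc6a14 (2.62), Slc43a3 (-6.79) and Slc38a4 (-8.53, which depends on the prior count because High is at 0).

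Across the 35 tested members, 25 had a log2 fold change above 0 and 10 below. Their median was 0.37, against 0.03 over all 12987 genes tested. Of these members, 4 passed the low-count filter only through the High libraries (Slc6a4, Slc6a12, Slc6a17 and Slc7a14). Another 3 passed it only through the Low libraries (Slc38a4, Slc43a1 and Slc43a3). For these 7 the direction is tied to being tested. The groups did not overlap in 20 members (57.1%), 15 with High above and 5 with High below, against 51% of all tested genes (25.9% above, 25.1% below). The total is near the background. Beside it, DESeq2 called 7 members higher and 2 lower (8.75% of all genes called in either direction). Its additional calls were Slc1a3, Slc6a4, Slc6a7, Slc6a9 and Slc7a1.

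Slc43a1 and Slc43a3 lie close to each other on chromosome 2, with 73 kb between them, and Slc43a1 starts at 84838850 and ends at 84863594 (mm10). The genes around them were examined after their values were seen. Between the pair lies Rtn4rl2, a receptor of the Nogo family, at 1.03 and 1.39 CPM in Low and 0 and 0.122 CPM in High (log2 fold change -4.04, adjusted p = 0.133). Of 12 tested genes that are not members and lie inside or within 200 kb, 11 had a log2 fold change below 0. Of the 12, 0 were called by edgeR, DESeq2 or limma-voom. With edgeR 2 had an unadjusted p under 0.05, against 18.1% of all genes. The log2 fold change was -0.66 for Ube2l6, -0.38 for Timm10 and -0.56 for Ssrp1. Slc43a1, Rtn4rl2 and Slc43a3 follow each other among the tested genes, but each passed the low-count filter only through the Low libraries, so that being tested and being lower are tied for all 3. Outside them the log2 fold changes ran from -0.66 to 0.06.

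**Figure D4:**
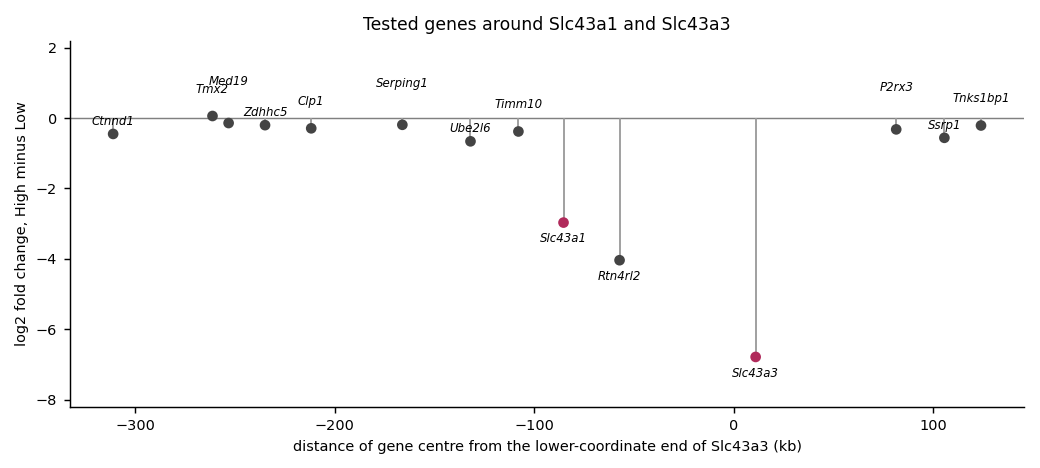
Log2 fold change, High minus Low, of the tested genes around Slc43a3 against their distance from its lower-coordinate end (kb), members in red. Slc43a1 (-2.97), Rtn4rl2 (-4.04) and Slc43a3 (-6.79) are next to each other, and the flanking genes lie between -0.66 and 0.06.

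The Slc38a1, Slc38a2 and Slc38a4 genes lie in 1 run on chromosome 15, with gaps of 44.5 and 295.1 kb. Their log2 fold changes were -0.09, -0.60 and -8.53, and only Slc38a4 passed. The 4 tested genes within 200 kb were Arid2 (-0.70), Scaf11 (-0.52), Amigo2 (0.70) and Pced1b (0.00), with 0 called by edgeR, DESeq2 or limma-voom (1 at an unadjusted p under 0.05 with edgeR). Around Slc6a12 the 4 tested genes had log2 fold changes of 0.08 to 2.55, again with 0 called and 1 at an unadjusted p under 0.05. Over all genes 18.1% had an unadjusted p under 0.05 with edgeR.

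The High libraries were also set against each other, since they are different clones. In a fit with each High library alone, 3 members were lower in High library 2 than in 1 and 0 were higher (edgeR, with 10 and 1 at an unadjusted p under 0.05), against 10.9% of all genes called in either direction (4.46% higher and 6.47% lower in library 2). At 8.57% of the members, the share is near that background. This fit takes its spread from the Low pair alone, with 1 residual degree of freedom, and that spread may be technical. Its p-values therefore compare these 2 libraries and not the clones. For this fit no share over all genes was taken at an unadjusted p, so the counts at that threshold have no background. Slc7a2 was lower in High library 2 (log2 -3.47, adjusted p = 1e-14), as were Slc1a3 (log2 -2.52, adjusted p = 3.75e-09) and Slc1a4 (log2 -1.18, adjusted p = 0.0101). For Slc7a2, High library 2 (7.16 CPM) was below both Low values, and for Slc1a3 it was at 17.1 CPM against 14.8 and 12.3 CPM. The called members of the group comparison did not pass between the High libraries. Slc6a12 gave -0.87 (adjusted p = 0.363), Slc6a14 0.31 (0.744) and Slc43a3 1.36 (0.411), while Slc38a4 was at 0 in both. The median over members was -0.39, against 0.02 over all genes, and 23 of the 35 were below 0. Cell type markers also differed between these libraries. Fibroblast markers summed to 320 and 40.1 FPKM (6 of 7 tested called lower in library 2), and epithelial markers to 1290 and 3092 FPKM (7 of 8 called higher in library 2). Their part was not tested.

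**Figure D5:**
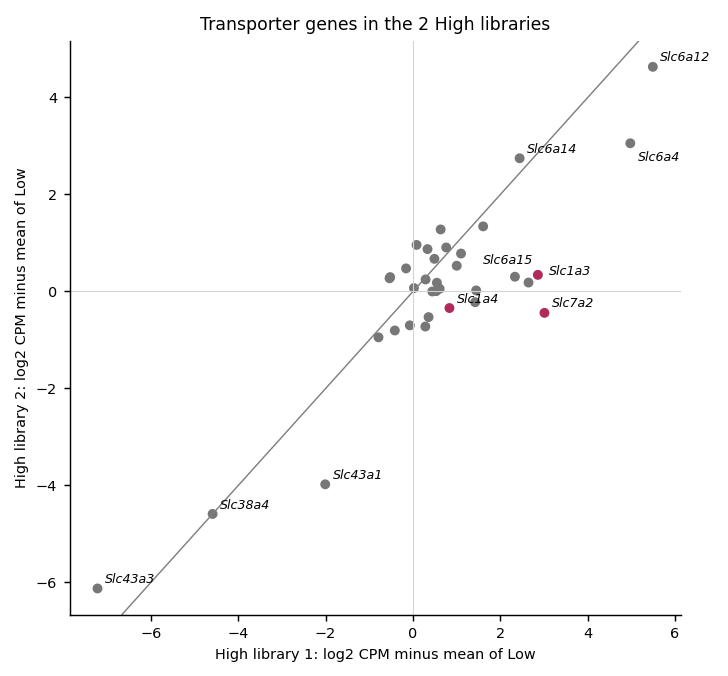
Each of the 35 tested members as log2 CPM (prior count 2) minus the Low mean, in High library 1 (x axis) and High library 2 (y axis), with the line of equality in grey and members called between the libraries in red. Slc7a2 (3.01 and -0.44), Slc1a3 (2.86 and 0.34) and Slc1a4 (0.83 and -0.34) lie below the line, while Slc6a12, Slc6a14 and Slc43a3 lie on the same side in both.

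Genes that work with these transporters were taken from lists of pathway genes. In the list of osmotic response and organic osmolytes, 2 of 11 tested rose (1.14% of all genes did) and 9 did not pass. The water channel Aqp1 rose from 28.1 and 24.7 CPM to 68.2 and 62.3 CPM (2.47-fold, adjusted p = 0.0352). Akr1b3, which makes the osmolyte sorbitol, had 0 fragments in both Low libraries and 53 and 54 in High, at least 36.1-fold higher (adjusted p = 0.0301). It has close gene copies and its counts are uncertain. Akr1b3 also passed the low-count filter only through the High libraries, so being tested and being higher are tied for this gene. NFAT5 itself, Nfat5, was at 143 and 244 CPM (Low) and 354 and 237 CPM (High), without passing (adjusted p = 0.392). The myo-inositol carrier Slc5a3 gave a log2 fold change of -0.04 (adjusted p = 0.971), and the chaperone Hspa4l 1.01 (adjusted p = 0.0923).

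In the mTORC1 amino acid sensing list, 1 of 23 tested rose, and that was Rragd, a Rag GTPase of the lysosomal surface. It went from 0.735 and 0.988 CPM to 16.5 and 6.47 CPM (13.1-fold, adjusted p = 0.0283). Over all genes 1.14% rose. With limma-voom 0 of this list passed, and with DESeq2 2 rose, against 4.7% of all genes. Its partner GTPases Rraga and Rragb gave log2 fold changes of 0.44 (adjusted p = 0.347) and 2.34 (0.221), and the mTORC1 activator Rheb 0.51 (0.260). Among other amino acid and peptide carriers, 1 of 8 tested rose (again against 1.14% of all genes), the choline transporter Slc44a1, from 34.7 and 45 CPM to 104 and 88 CPM (2.40-fold, adjusted p = 0.0445). Choline is the precursor of betaine. The related Slc44a2 was at 91.6 and 93.7 against 297 and 156 CPM (adjusted p = 0.0982), and the lysosomal cystine exporter Ctns at 16.1 and 18 against 58.8 and 29.7 CPM (adjusted p = 0.108). The calls of both lists were lost with limma on log2(FPKM + 1) and, like all others, when a Low library was left out.

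In the remaining lists 0 genes passed with edgeR. The 20 genes of the amino acid response had a median log2 fold change of -0.02, and DESeq2 and limma-voom called 0. With edgeR 4 had an unadjusted p under 0.05, against 18.1% of all genes, a share that also applies to the lists below. The proline enzyme Pycr1 gave 0.92 (adjusted p = 0.193) and the stress gene Ddit4 -0.88 (0.248). Asparagine synthetase, Asns, gave 0.16 (adjusted p = 0.742), and the factor Atf4 -0.32 (0.517). Of 13 glutamine and glutamate enzymes 0 had an unadjusted p under 0.05, and of 7 cystine and glutathione genes 1 had, namely Cth, at 5.73 and 4.54 against 0.643 and 1.63 CPM (adjusted p = 0.145). Of 8 vesicular and mitochondrial carriers 1 had, Slc25a15 (log2 0.89, adjusted p = 0.186). DESeq2 and limma-voom called 0 in these 3 lists.

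The 5 genes outside the members whose pattern was most like Slc6a12, by distance in centred log2 CPM over the 4 libraries, were Tlr1 (distance 0.73), Akr1b3 (0.83), Upk3b (0.84), Ttc36 (0.89) and Rarres1 (0.90). All had at most 0.146 CPM in a Low library, against 1.59 to 5.49 CPM in the High libraries. This is a description over 4 libraries that share the group contrast.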

How the data were processed

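RNA was measured in 4 libraries. Directional libraries were made from 500 ng of DNase-treated RNA (labels' protocols). The submitters' processing notes name cutadapt (1.5), TopHat2 (2.0.13), Cuffdiff (2.2.1) and build mm10. For annotation and strand setting, the sources used here give nothing. Per the file headers, the deposited table has, for each gene and library, the authors' estimated count of fragments, a scaled signal and FPKM. The authors' scaled signal multiplies fragments by 0.7291 to 1.4646 per library and was used only to recover these factors. Estimated counts were rounded (99.18% were whole within 1e-06).

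The test was edgeR 4.0.16 quasi-likelihood (TMM, robust, smallest count 10, limma 3.58.1, R 4.3.3), two-sided, with adjustment over all 12987 tested genes at 0.05. Alternatives are listed in the closing section (DESeq2 1.42.0 among them). The fit was tested on simulated data with a smaller spread between libraries than these data have (biological coefficient of variation 32.2% here). That test therefore does not show how the fit performs at the spread of these data. The 2 Low libraries differed beyond sampling noise (chi-square per degree of freedom 32.4) and were kept apart. For the 2 High libraries the same value was 123.4. An added fit treated each High library alone. Library numbers only name libraries, and which clone is which is not given in the table. Members and lists were chosen with earlier results of these data known. Named genes were the called members, the 12 next by p, the most abundant of each role, a fixed set of 9, the 6 that differed most between High libraries, and, of each pathway list, the called genes and up to 3 next by p. Asns, Atf4, Slc5a3 and the neighbouring genes were chosen after values were seen. Coordinates are GENCODE M21 (mm10). Columns of per-sample values left unused for want of a sample numbered 0.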

Additional observations from a re-analysis of the deposited data

How the results depend on the processing

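The main test covered 35 members, the fit without a low-count filter 46, and a smallest count of 50 left 26, without Slc38a4. The members called higher and lower (2 and 2) moved to 7 higher with DESeq2 and to 4 higher without a low-count filter. They moved to 1 lower with limma on log2(FPKM + 1) and to 1 lower with a smallest count of 50. With a library left out they ranged from 0 to 10 higher and from 0 to 5 lower. Over all genes, 148 rose and 173 fell. DESeq2 gave 611 and 525, no low-count filter 437 and 377, and a library left out 0 to 1370 and 0 to 1076. With the replicate number as a block, 3 members rose and 2 fell, and 223 genes rose and 246 fell. The numbers only name libraries, and deviations of same-numbered libraries correlated at -0.139. With the numbers crossed, an alternative added after seeing the data, 1 member rose and 1 fell (38 and 56 of all genes), and the calls of Slc6a12 and Slc38a4 were lost. Beside that setting, 3 of the 4 calls were kept in 9 of 11 alternatives and Slc38a4 in 7 of 10, all 4 being lost without Low library 1 or 2. The log2 fold change of Slc7a11 ranged from -1.07 to -0.67 with a library left out. With a library left out, the log2 fold change of 12 of the 35 tested members changed sign. These were Slc36a4, Slc38a7, Slc38a9, Slc6a17, Slc7a7 and 7 of the 25 members given under every alternative. For those 7 it ranged from -0.34 to 0.83 for Slc1a4, -0.53 to 0.30 for Slc1a5, -0.55 to 0.26 for Slc38a1, -0.05 to 0.14 for Slc3a2, -0.53 to 0.35 for Slc6a6, -0.48 to 2.99 for Slc7a2 and -0.17 to 0.46 for Slc7a5. A lone library left in a group is assumed to vary like the other group. The causes were not tested. Of 271 values for 25 members, 227 kept their direction and side of the threshold. Members under a few fragments are limited by depth.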
